A study of Homo sapiens with 4 samples.

Results

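Many human transcripts end at either of 2 poly(A) sites that lie close together on the same strand. The 558 loci described here each had exactly 2 such sites, 26 to 200 nt apart, out of 18156 loci in all (3.07%). Positions are on hg19 (GRCh37), counted from 1, and the more 5′ site of a pair is called proximal and the other distal. To find the sites, 3′ end positions of all 4 libraries were pooled, and on each strand the most read position took every position within 25 nt. A site was kept when its level averaged 1 RPM (reads per 1000000 reads of the library) or more over the 4 libraries. The most used site then took in every other kept site up to 10 kb away on its strand, which defined a locus, and sites with at least 5% of the locus mean RPM were counted. Of 784 loci with exactly 2 such sites 26 to 200 nt apart, 226 had fewer than 50 pair reads in a library and were left out. The 558 that stayed made up 21.6% of the 2583 loci with exactly 2 sites at any distance and at least 50 reads in every library.

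Polyadenylated RNA 3′ ends were read by A-seq in HEK293 cells, an established embryonic kidney line of human origin. In this assay an anchored oligo-dT primer starts where the transcript meets its poly(A) tail. There were 4 libraries with 1 per group, from cells given an siRNA against CF Im 68, one against CstF-64 or a control siRNA (scrambled-A), and from cells with no siRNA. The siRNA-treated cells were collected 3 days later. The siRNAs define the groups, and the strand listed in the labels was, 5′ to 3′, nngaccgagauuacauggaua for CF Im 68 and nnccugaaugggcgcgaauuc for CstF-64, with n for a base not given. With no replicate, the spread between cultures is unknown, and every test below compares reads of 2 libraries and not conditions. Read totals ran from 7343112 under CstF-64 siRNA to 15806975 without siRNA, and no gene names are given because no annotation of hg19 was used here. For the same reason the level of the targeted transcripts was not analysed here, so the extent of either depletion is unknown.

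A poly(A) site is set by several RNA elements and the factors that read them. The cleavage and polyadenylation specificity factor binds the AAUAAA signal upstream of the cleavage position. In the cleavage stimulation factor, CstF-64 binds RNA and contacts U- and GU-rich sequence downstream of that position. CF Im 68 is the large subunit of cleavage factor I, whose small subunit binds UGUA upstream of the cleavage position and which is known for favouring distal sites in long 3′ UTRs. The depletions ask what these factors do to the choice of site.

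The rule used read levels, so the levels of the members are a description. The mean locus level ran from 5.89 to 1884 RPM with a median of 33.0 RPM, and the median of all 4793 loci that could be tested was 30.6 RPM. Just inside the 5% limit lay the pairs at 36677679 and 36677745 on chromosome 9, at 16721865 and 16722038 on chromosome 20 (both plus strand), and at 53497227 and 53497031 on chromosome 17 (minus strand). Just outside it, the weaker site held 4.999% of the locus at 73030746 on chromosome 15, 4.98% at 101284929 on chromosome 3 and 4.96% at 48829916 on chromosome 17, all on the plus strand. Just inside the read limit, with 50 reads under CstF-64 siRNA each, were the pairs at 19529271 and 19529332 on chromosome 12, at 114204507 and 114204543 on chromosome 13 (both plus) and at 29334941 and 29334904 on chromosome 17 (minus). The nearest left-out pairs had 49 reads in a library, at 87361813 on chromosome 10, 93515860 on chromosome 7 and 142168080 on chromosome 3, all minus strand. Beyond the upper distance, the next loci had their sites 203 and 204 nt apart, after 1 locus at the first distance past 200 nt.

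The 2 sites of a member were a median of 86.5 nt apart, with quartiles of 55 and 128 nt. There were 122 pairs 26 to 50 nt apart, 112 at over 50 to 75 nt, 98 at over 75 to 100 nt, 139 at over 100 to 150 nt and 87 at over 150 to 200 nt. Members lay on all 23 chromosomes considered, 279 on each strand. In 378 of them (67.7%) no other site reached 1 RPM within the locus. The distal site was the more used one, by mean RPM, in 319 members (57.2%) and the proximal site in 239. At over 200 to 1000 nt the distal site was the more used one in 57.1% of 2-site loci, and at over 1000 to 5000 nt in 54.0%.

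Each site was itself a small cluster of cleavage positions with 1 leading position. Proximal sites held a median of 12 read positions and distal sites 12.5, against 8 over all sites of the series. Members needed at least 50 pair reads in every library and the sites of the series did not. The number of positions can grow with depth, and the part of depth in this difference was not tested. Over the 931 member sites with at least 20 reads in every library, the leading position held a median of 65.9% of the site reads under CF Im 68 siRNA, 67.9% under CstF-64 siRNA, 63.1% under control siRNA and 62.9% without siRNA. Over all 17141 sites of that depth the medians were 67.6%, 68.3%, 65% and 64.7% in the same order of libraries. In 776 of the 931 sites (83.4%) the same position led in all 4 libraries, against 82.4% of all sites. The mean cleavage position within a member site moved by a median absolute 0.252 nt between CF Im 68 and control siRNA, by 0.294 nt between CstF-64 and control siRNA and by 0.275 nt between control and no siRNA. Cleavage within a site thus stayed in place to within a fraction of a nucleotide at the median, and the differences in proximal share described below are between sites.

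The nearest pairs were not always separated by an empty stretch. At 26 to 50 nt, 27 of 122 pairs (22.1%) had over 10% of the reads from one leading position to the other, both included, in the central of 3 equal parts of that interval under control siRNA. At over 50 to 75 nt there was 1 such pair of 112, and at larger distances there were 0. At up to 50 nt the 25-nt radii of the sites also touch, and whether such a pair is 1 broad site was not tested. The 3 nearest pairs were 26 nt apart, such as the chromosome 17 pair (plus strand, 4701763 and 4701789). Its proximal share, the percentage of pair reads at the proximal site, was 2.39% under CF Im 68 siRNA, 4.13% under CstF-64 siRNA, 5.77% under control siRNA and 9.26% without siRNA. At the chromosome 16 pair (minus strand, 3022820 and 3022794) the share was 11.5%, 20.9%, 15.4% and 16.4% in the same order. At the chromosome 8 pair (plus strand, 125562201 and 125562227) it was 73.4%, 72.8%, 68.1% and 68.0%.

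The deepest members show how closely the libraries can be compared. The most read of them, the chromosome 17 pair (plus strand, 37360921 and 37360981), had a proximal share of 10.9% of 20908 reads under CF Im 68 siRNA, 10.8% of 16807 under CstF-64 siRNA, 10.5% of 28229 under control siRNA and 18.4% of 23888 without siRNA. There the 3 siRNA-treated libraries lay together and the untreated one apart, with an exact Clopper-Pearson 95% interval of 10.1 to 10.8% under control siRNA and 17.9 to 18.9% without siRNA. At the chromosome 5 pair (plus strand, 10265038 and 10265124) the shares were 21.1%, 20.0%, 16.5% and 17.2% in the same order of libraries, so that both depletions lay above both controls. At the chromosome 17 pair (minus strand, 5336099 and 5335951) they were 92.0%, 87.5%, 88.5% and 85.0%, and at the chromosome 1 pair (plus strand, 156563929 and 156564090) they were 63.9%, 65.9%, 58.2% and 58.5%. The chromosome 3 pair (plus strand, 197682688 and 197682720), 32 nt apart, had 40.8%, 35.2%, 40.4% and 44.3%. At the chromosome 19 pair (plus strand, 812222 and 812313) the shares were 59.1%, 63.2%, 62.8% and 52.4%. In none of these 6 did a depletion differ from control siRNA by 10 points, and at the chromosome 19 pair the controls did, with a difference of 10.5 points. Intervals here and below cover counting error only, since PCR copies could not be told apart from molecules.

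As a description, site use of members varied less across the libraries than over all tested loci, which include loci with further sites. The share of a member varied over the 4 libraries by a median of 9.12 points, with quartiles of 5.64 and 14.7 points, against a median of 14.5 points over all tested loci. In 306 members (54.8%) the 4 shares lay within 10 points, against 31.6% of all tested loci. The same site was the major one in every library in 497 members (89.1%), against 78.5% of all tested loci. Median proximal shares over the 558 members were 39.9% under CF Im 68 siRNA, 34.5% under CstF-64 siRNA, 35.5% under control siRNA and 36.8% without siRNA. The median member had 468 pair reads under CF Im 68 siRNA, 231 under CstF-64 siRNA, 439 under control siRNA and 478.5 without siRNA.

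**Figure D1:**
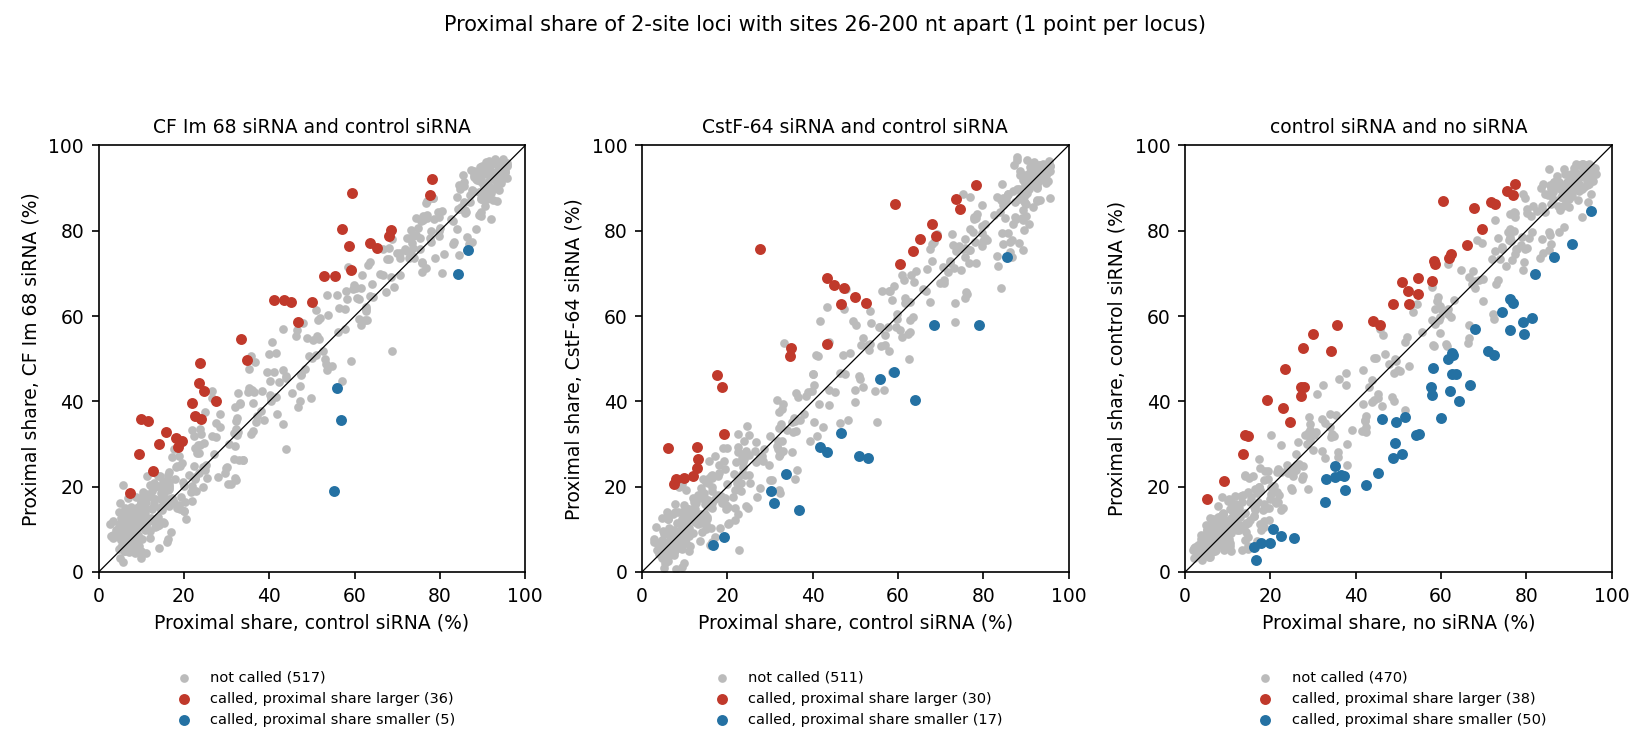
Proximal share (%) of each of the 558 loci in 2 libraries, for CF Im 68 siRNA (36 called larger, 5 smaller) and CstF-64 siRNA (30 and 17) against control siRNA and for control siRNA against no siRNA (38 and 50). Coloured points in the left and middle panels moved against both control libraries, those in the right panel passed the 2-library test, and the line marks equal shares.

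Under CF Im 68 siRNA, close pairs moved to the proximal site more often than to the distal site, at a low rate. A locus is counted as moved when its proximal share was 10 points or more from that under control siRNA at a Benjamini-Hochberg adjusted p below 0.05 (two-sided Fisher's exact test, adjusted over all 4793 tested loci) and from no siRNA by at least 10 points the same way. By this rule 36 members (6.45%) moved to the proximal site, where the figure for all tested loci was 24.2%, and 5 (0.896%) moved to the distal site, against 2.63%. The median difference was 2.39 points over control siRNA, with quartiles of −0.98 and 6.11 points, and 4.84 points over all tested loci. The share was larger than under control siRNA in 369 members (66.1%) and smaller in 189, where it was larger in 71.6% of all tested loci. The rule for sites used the mean of all libraries, so a site could enter by its level after a depletion, and with sites chosen on the control libraries alone 42 of 577 loci had proximal and 6 had distal moves.

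The control libraries differed from each other at more members than CF Im 68 siRNA did from control siRNA, but without its direction. By the same test between 2 libraries, CF Im 68 siRNA had a larger proximal share than control siRNA in 50 members and a smaller one in 8, where 30.6% and 4.32% of all tested loci were called. Against no siRNA it was larger in 88 and smaller in 44 members (35.0% and 8.89% of all tested loci). Control siRNA against no siRNA gave 38 members with a larger and 50 with a smaller proximal share (10.6% and 11.1% of all tested loci), with a median difference of 0.352 points.

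The move under CF Im 68 siRNA was near 0 in the closest pairs and larger in the wider classes up to 200 nt. At 26 to 50 nt, 2 of 122 members had proximal and 2 had distal moves, and the median difference from control siRNA was −0.17 points. At over 50 to 75 nt 7 of 112 had proximal moves and 0 had distal moves, with a median of 2.88 points. At over 75 to 100 nt the counts were 5 and 2 of 98, with a median of 3.47 points. At over 100 to 150 nt they were 9 and 0 of 139 with a median of 3.31 points, and at over 150 to 200 nt 13 and 1 of 87 (14.9% and 1.15%) with a median of 3.68 points. Loci with 2 sites over 200 to 1000 nt apart had 20.4% proximal and 1.88% distal moves, and those over 1000 to 5000 nt apart had 29.6% and 2.66%. Beyond 5000 nt the figures were lower again for proximal moves, with 11.6% proximal and 4.52% distal moves and a median difference of 0.54 points. Depth also varied with distance, with a median of 415.5 pair reads under CF Im 68 siRNA at 26 to 50 nt and 566 at over 150 to 200 nt, and its part in the counts was not tested. At 26 to 50 nt, reads within 25 nt of both leading positions went to the more read position. The part of this in the values of that class was not tested either. Against no siRNA the medians by distance were −0.376, 0.92, 4.76, 3.64 and 5.0 points, so that the over 50 to 75 nt class differed little from the untreated library. In that class control siRNA itself lay below no siRNA by a median of 1.63 points (−1.63). In terms of length, the change in share was multiplied by the distance between the leading positions. Under CF Im 68 siRNA against control siRNA this gave a median upstream shift of 1.91 nt (−1.91 nt), and of 6.48 nt (−6.48 nt) at over 150 to 200 nt. The value grows with distance by construction, so it is no further result on distance.

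**Figure D2:**
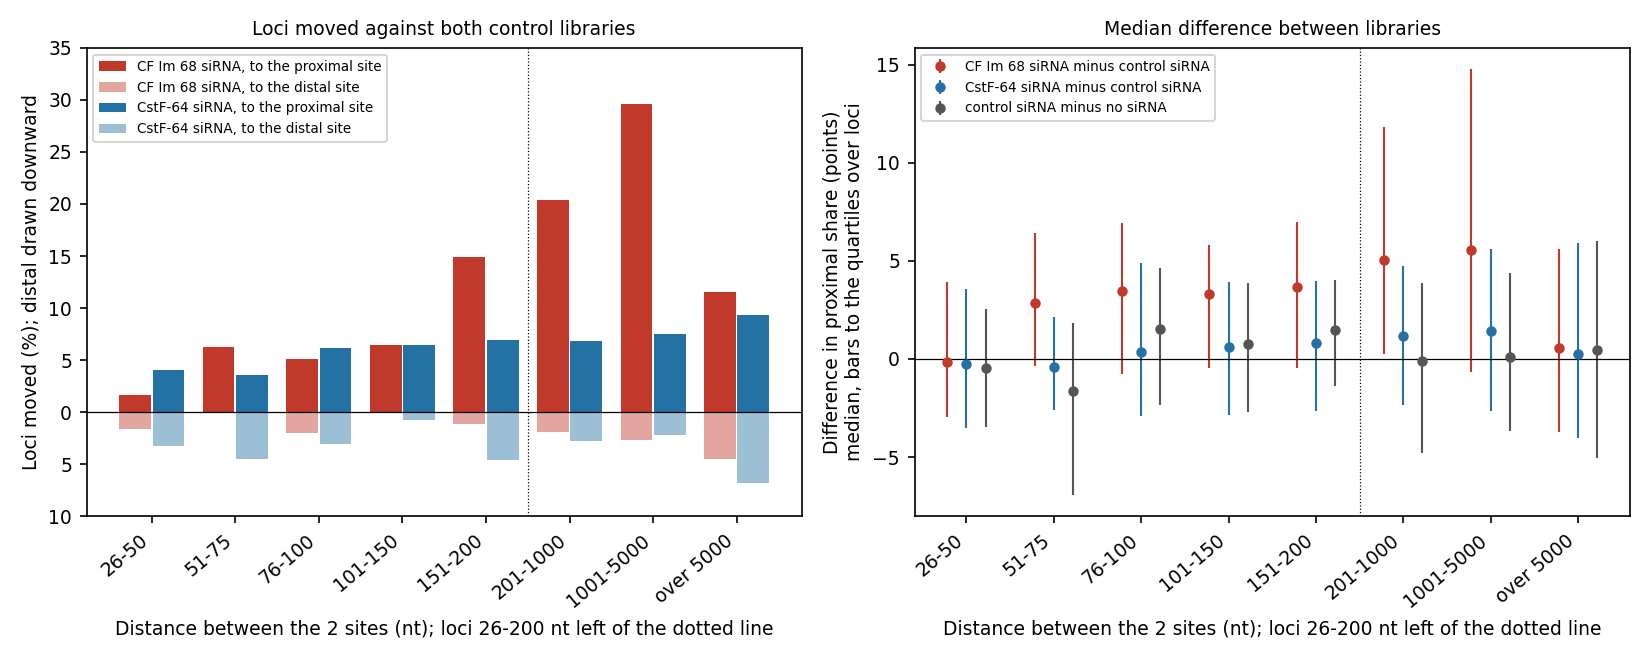
Left, percentage of loci that moved against both control libraries, by distance between the sites, with distal moves drawn downward. Right, median difference in proximal share with bars to the quartiles over loci; under CF Im 68 siRNA it was −0.17 points at 26 to 50 nt and 3.68 points at over 150 to 200 nt, and under CstF-64 siRNA between −0.40 and 0.82 points within 200 nt.

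The 36 proximal moves spanned 10.7 to 29.6 points with a median of 14.6 points, and 5 of them made the proximal site the major one where it was the minor one in both controls. In them the proximal site was at a median of 16.4 RPM under CF Im 68 siRNA, 8.74 RPM under control siRNA and 9.36 RPM without siRNA. The distal site was at 12.7 RPM under CF Im 68 siRNA, 15.1 RPM under control siRNA and 15.3 RPM without siRNA. The proximal level was above both controls in 34 of 36 and the distal level below both in 24 of 36. Over all 558 members these counts were 321 and 195. The 36 were chosen by a share made from these same levels, so their counts follow in part from the choice. Fewer RNA molecules from a locus and less use of one of its sites cannot be told apart from a single site's level.

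The largest of these moves was at the chromosome 1 pair (minus strand, 94994873 and 94994782), 91 nt apart. Its proximal share was 88.9% under CF Im 68 siRNA (interval 80.5 to 94.5), 86.3% under CstF-64 siRNA (73.7 to 94.3), 59.3% under control siRNA (45.7 to 71.9) and 72.3% without siRNA (62.2 to 81.1). Both depletions lay high there, with only 51 to 94 reads per library, and the intervals of the depletions overlap that of the untreated library. Against no siRNA the adjusted p was 0.00943 for CF Im 68 siRNA and 0.115 for CstF-64 siRNA (Fisher's exact test of 2 libraries). The chromosome 10 pair (minus strand, 126086024 and 126085872) had 35.8% of 433 reads proximal under CF Im 68 siRNA (31.3 to 40.5), 14.0% under CstF-64 siRNA, 10% under control siRNA (6.37 to 14.7) and 20.7% without siRNA (14.9 to 27.5). At the chromosome X pair (plus strand, 134126315 and 134126502) the shares were 48.9% (42.8 to 55), 30.8%, 23.9% and 25.9% in the same order of libraries. At the chromosome 5 pair (plus strand, 33468039 and 33468191), 152 nt apart and with 919 reads under CF Im 68 siRNA, they were 44.4% (41.2 to 47.7), 26.7% (21.0 to 33), 23.5% (20.3 to 27) and 21.5% (18.6 to 24.7). In these last 2 pairs the CF Im 68 library stood alone and the other 3 lay together. The adjusted p against control siRNA at the chromosome 5 pair was 8.23e-17 (Fisher's exact test of 2 libraries), with a proximal level of 31.9 RPM under CF Im 68 siRNA and 8.17, 11.4 and 10.0 RPM in the CstF-64, control and no siRNA libraries.

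Other large moves were at pairs 49 to 173 nt apart. At the chromosome 4 pair (plus strand, 159176355 and 159176432), 77 nt apart, the proximal share was 35.5% of 93 reads under CF Im 68 siRNA, 14.8% under CstF-64 siRNA, 11.7% under control siRNA and 6.84% without siRNA. At the chromosome 18 pair (plus strand, 3458346 and 3458405), 59 nt apart, it was 80.5% (75.1 to 85.1), 55.5%, 57.0% and 67.9% (62.5 to 73) in the same order. The chromosome 1 pair (minus strand, 25226059 and 25226010) was among the closest to move, at 49 nt, with 63.8% (58.5 to 68.9), 31.8% (23.1 to 41.5), 41.0% (36.2 to 46) and 48.5% (43.7 to 53.3). There the depletions lay on opposite sides of both controls. At the chromosome 11 pair (minus strand, 8413591 and 8413418), 173 nt apart, both depletions were high, with 54.5% under CF Im 68 siRNA, 53.7% under CstF-64 siRNA, 33.3% under control siRNA and 29.2% without siRNA, on 54 to 96 reads per library.

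Only 5 members moved to the distal site under CF Im 68 siRNA, and CstF-64 siRNA lay below both controls in all 5. The largest, at the chromosome 4 pair (plus strand, 184432081 and 184432250), had a proximal share of 19.0% of 58 reads under CF Im 68 siRNA (9.87 to 31.4), 35.1% under CstF-64 siRNA (22.9 to 48.9), 55.2% under control siRNA (45.7 to 64.4) and 52.0% without siRNA (41.8 to 62). At the chromosome 16 pair (plus strand, 28848510 and 28848557) the shares were 35.7%, 42.7%, 56.8% and 76.1%, and at the chromosome 14 pair (minus strand, 32672303 and 32672261) they were 43.2%, 45.3%, 55.9% and 79.4%. In both, the controls were themselves 19.3 and 23.6 points apart (control siRNA minus no siRNA −19.3 and −23.6). The pairs at 9549528 and 9549612 on chromosome 11 and at 93625034 and 93625128 on chromosome 10, both plus strand, had 69.9% and 75.5% under CF Im 68 siRNA, 66.7% and 77.9% under CstF-64 siRNA, 84.3% and 86.7% under control siRNA, and 80.2% and 94.3% without siRNA.

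**Figure D3:**
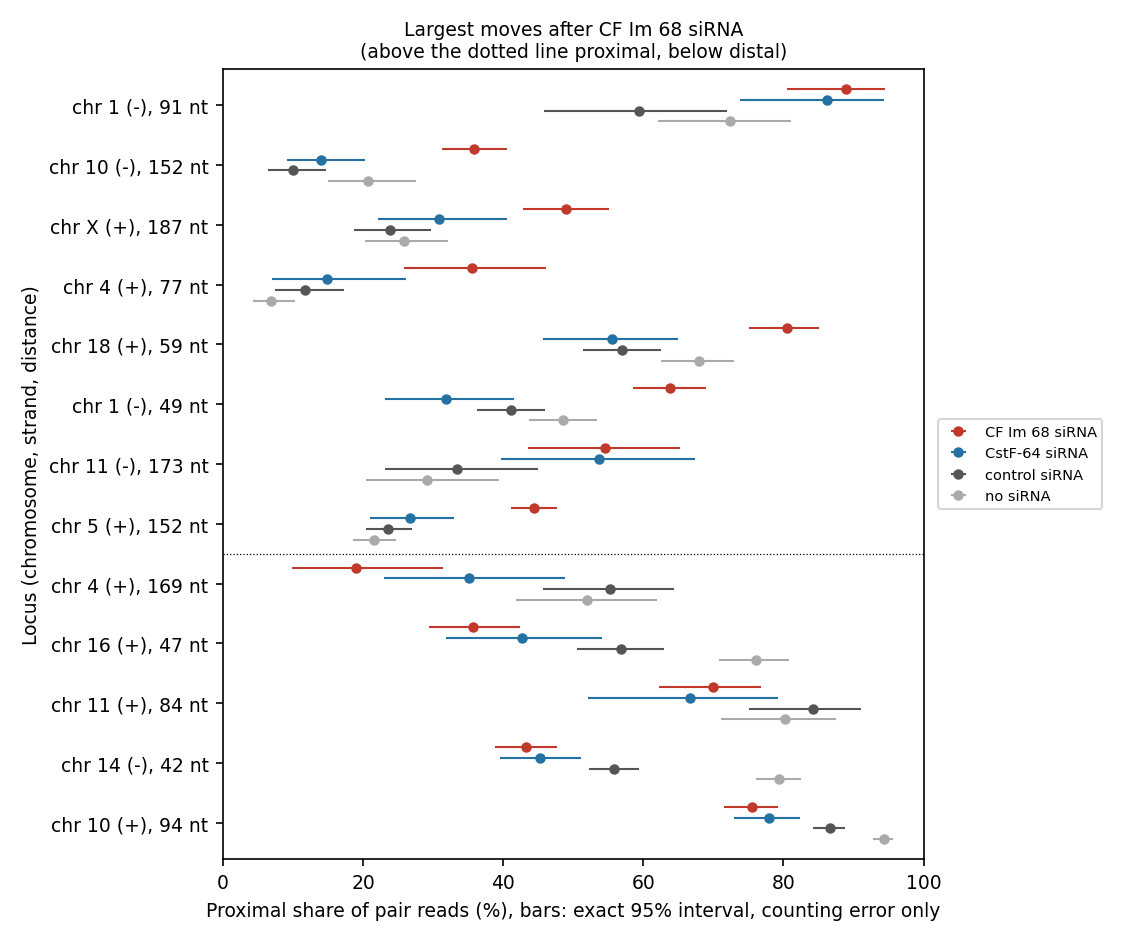
Proximal share (%) in each library, with exact 95% intervals for counting error, at the 8 largest proximal moves under CF Im 68 siRNA (above the dotted line) and at its 5 distal moves (below), labelled by chromosome, strand and distance. At the chromosome 5 pair the CF Im 68 library (44.4%) lies above the other 3, which are at 21.5 to 26.7%.

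Under CstF-64 siRNA, moves of close pairs went both ways. The comparison uses the same 2 control libraries as that of CF Im 68 siRNA. By the same rule 30 members (5.38%) moved to the proximal site, where 8.20% of all tested loci did, and 17 (3.05%) to the distal site, against 3.59%. The median difference from control siRNA was 0.224 points, with quartiles of −2.76 and 3.77 points, and 1.04 points over all tested loci. The share was larger than under control siRNA in 284 members (50.9%) and smaller in 274, where it was larger in 56.1% of all tested loci. Against no siRNA alone the same test called 72 members larger and 71 smaller (19.0% and 13.4% of all tested loci), and against control siRNA alone 33 and 24 (10.6% and 5.28%). By distance, moves to the proximal site made up 4.10% at 26 to 50 nt, 3.57% at over 50 to 75 nt, 6.12% at over 75 to 100 nt, 6.47% at over 100 to 150 nt and 6.90% at over 150 to 200 nt. Moves to the distal site made up 3.28%, 4.46%, 3.06%, 0.719% and 4.60% in the same order. In the 30 proximal moves, the distal site was below both controls in 26 and the proximal site above both in 27. Over all 558 members these counts were 220 and 226. The 30 were chosen by a share made from these same levels, so their counts follow in part from the choice. Among the 30, the median distal site was at 12.3 RPM under CstF-64 siRNA, 20.6 RPM under control siRNA and 20.1 RPM without siRNA. The median proximal site was at 19.5, 14.1 and 10.2 RPM in the same order. These levels are scaled by read totals, by which the median of all loci was lower by 0.19 on the log2 scale under CstF-64 than under control siRNA (−0.19).

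The largest single move under CstF-64 siRNA exceeded any under CF Im 68 siRNA. At the chromosome 1 pair (plus strand, 113214166 and 113214235), 69 nt apart, the proximal share was 34.9% of 312 reads under CF Im 68 siRNA, 75.7% of 70 under CstF-64 siRNA (64 to 85.2), 27.6% of 301 under control siRNA and 13.5% of 386 without siRNA. The distal site was at 15.9 RPM under CF Im 68 siRNA, 2.32 RPM under CstF-64 siRNA, 16.2 RPM under control siRNA and 21.1 RPM without siRNA. Its proximal site was at 8.52, 7.22, 6.17 and 3.29 RPM in the same order, so that the CstF-64 library was set apart by its distal site. At the chromosome 3 pair (plus strand, 41281900 and 41281934), 34 nt apart, the proximal share was 16.3% of 1937 reads under CF Im 68 siRNA, 46.1% of 293 under CstF-64 siRNA (40.3 to 52), 17.7% of 1330 under control siRNA and 8.62% of 1834 without siRNA. Here too the distal level was low under CstF-64 siRNA. It was at 127 RPM under CF Im 68 siRNA, 21.5 RPM under CstF-64 siRNA, 81.5 RPM under control siRNA and 106 RPM without siRNA, while the proximal site was at 24.6 RPM under CF Im 68 siRNA, 18.4 RPM under CstF-64 siRNA, 17.5 RPM under control siRNA and 10.0 RPM without siRNA. At the chromosome 2 pair (plus strand, 28002454 and 28002600) the share was 6.48%, 29.2% of 72 reads (19 to 41.1), 6.02% and 5.40% in the order CF Im 68, CstF-64, control and no siRNA.

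The best covered of these moves was at the chromosome 1 pair (minus strand, 45976900 and 45976724), 176 nt apart. Its proximal share was 46.5% of 12280 reads under CF Im 68 siRNA (45.6 to 47.3), 66.6% of 7452 under CstF-64 siRNA (65.5 to 67.7), 47.4% of 13447 under control siRNA (46.5 to 48.2) and 41.7% of 18232 without siRNA (40.9 to 42.4). The CstF-64 library was high and the other 3 lay within 6 points. The proximal site was at 446 RPM under CF Im 68 siRNA, 676 RPM under CstF-64 siRNA, 474 RPM under control siRNA and 480 RPM without siRNA, and the distal site at 514, 339, 527 and 673 RPM. At its distal site the leading position held 52.8% of the reads within 5 nt under CF Im 68 siRNA, 36.3% under CstF-64 siRNA, 46.1% under control siRNA and 47.2% without siRNA. At the chromosome 14 pair (minus strand, 45585250 and 45585106) the share was 29.4% of 3195 reads under CF Im 68 siRNA, 43.5% of 1408 under CstF-64 siRNA, 18.7% of 2951 under control siRNA and 14.7% of 3958 without siRNA. At the chromosome 7 pair (minus strand, 6063465 and 6063404) it was 63.8%, 68.8%, 43.4% and 27.8% in the same order. In these last 2 pairs both depletions lay above both controls, and at the chromosome 7 pair the controls were 15.7 points apart. The chromosome 9 pair (plus strand, 2193573 and 2193622) had 63.2%, 67.3% of 52 reads, 45.1% and 43.8%.

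Of the 8 largest of the 17 moves to the distal site under CstF-64 siRNA, 1 had its CF Im 68 share between the controls. At this chromosome 13 pair (minus strand, 50234865 and 50234812) the proximal share was 67.5% under CF Im 68 siRNA (63 to 71.8), 40.4% under CstF-64 siRNA (33.4 to 47.7), 64.1% under control siRNA (60.1 to 67.9) and 76.2% without siRNA (72.8 to 79.3). At the chromosome 5 pair (minus strand, 154267130 and 154267039) it was 50.8%, 27.3% (20.4 to 35), 50.9% and 62.9% in the same order of libraries, so that CF Im 68 and control siRNA lay together. At the chromosome 2 pair (minus strand, 9628717 and 9628617) it was 35.2%, 14.6% (9.61 to 21), 36.9% and 35.3%, and at the chromosome X pair (plus strand, 68061943 and 68062003) it was 50%, 26.8% of 56 reads, 53.0% and 61.5%. The chromosome 14 pair (minus strand, 68143578 and 68143521) had 73.6% of 1605 reads, 57.8% of 398, 79.0% of 1416 and 85.6% of 2077, with an adjusted p of 8.15e-15 for CstF-64 against control siRNA (Fisher's exact test of 2 libraries). Its proximal site was at 92.3 RPM under CF Im 68 siRNA, 31.3 RPM under CstF-64 siRNA, 83.2 RPM under control siRNA and 112 RPM without siRNA, while the distal site was at 33.1, 22.9, 22.2 and 18.9 RPM. There both depletions lay below both controls, with intervals of 71.4 to 75.7% under CF Im 68 siRNA and 76.7 to 81.1% under control siRNA. The share was 34.6% under CF Im 68 siRNA, 28.1% under CstF-64 siRNA, 43.3% under control siRNA and 57.5% without siRNA at the chromosome 14 pair (plus strand, 74398804 and 74398981). The shares were 20.7%, 16.2%, 31.0% and 29.2% at the chromosome 7 pair (minus strand, 107383254 and 107383199), and 38.8%, 32.5%, 46.6% and 49.0% at the chromosome 20 pair (plus strand, 23335340 and 23335409).

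**Figure D4:**
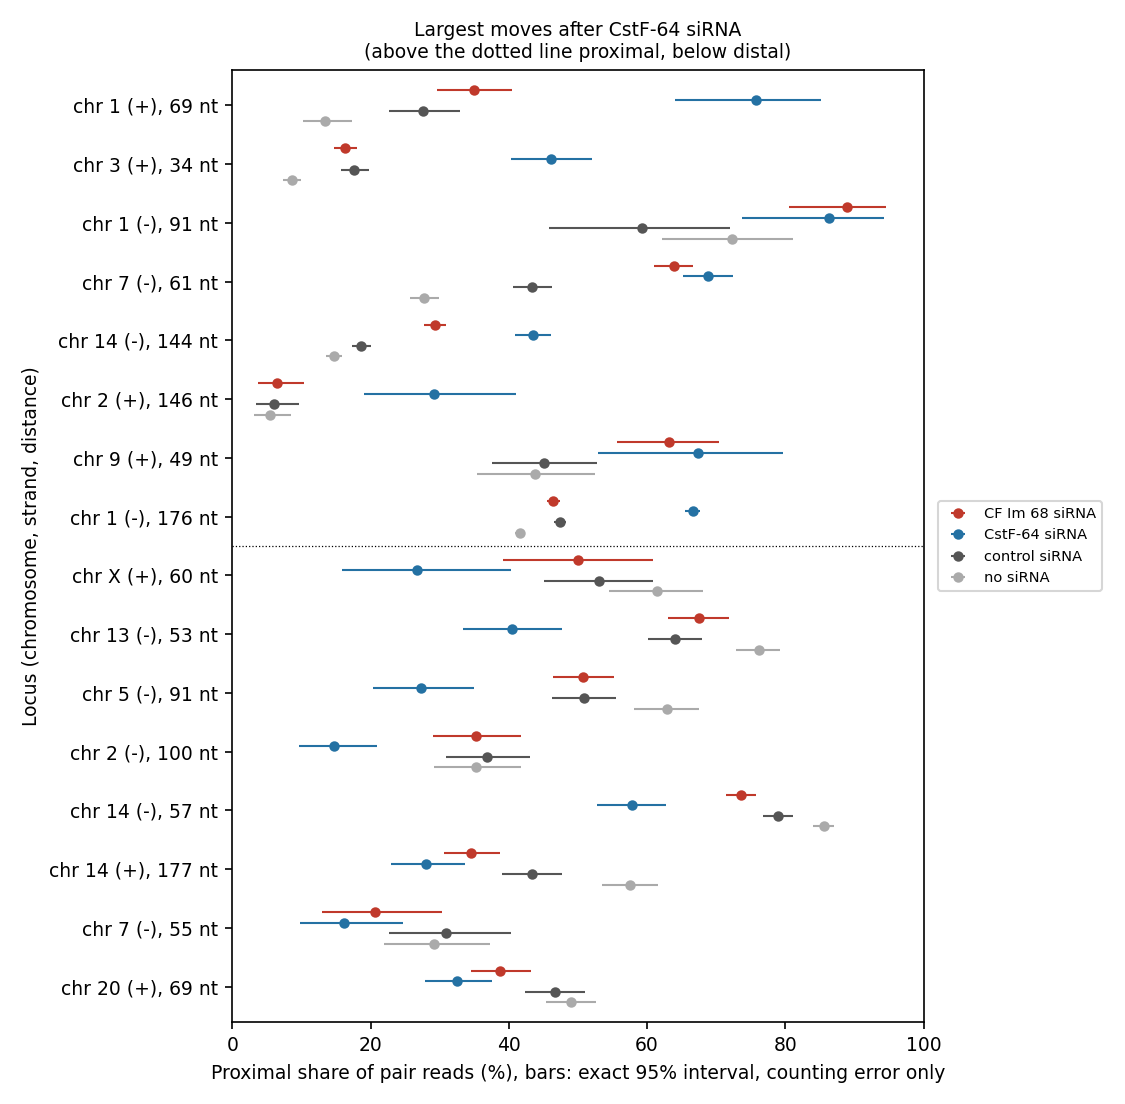
Proximal share (%) in each library, with exact 95% intervals for counting error, at the 8 largest moves to the proximal (above the dotted line) and to the distal site (below) under CstF-64 siRNA, labelled by chromosome, strand and distance. At the deepest of them, on chromosome 1 with sites 176 nt apart, the CstF-64 library (66.6%) lies above the other 3, which are at 41.7 to 47.4%.

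Read positions at single loci show which peaks changed. At the chromosome 5 pair that moved to the proximal site under CF Im 68 siRNA, the leading proximal position was at 16.3 RPM under CF Im 68 siRNA, 3.54 RPM under CstF-64 siRNA, 6.25 RPM under control siRNA and 4.55 RPM without siRNA. The leading distal position was at 29.9, 16.3, 28.8 and 28.3 RPM in the same order, so that CF Im 68 and the controls differed at the proximal peak. At the chromosome 10 pair that moved to the distal site, the leading proximal position was at 21.3 RPM under CF Im 68 siRNA, 25.6 RPM under CstF-64 siRNA, 44.8 RPM under control siRNA and 53.3 RPM without siRNA, and the leading distal position at 7.66, 7.35, 6.25 and 2.47 RPM.

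**Figure D5:**
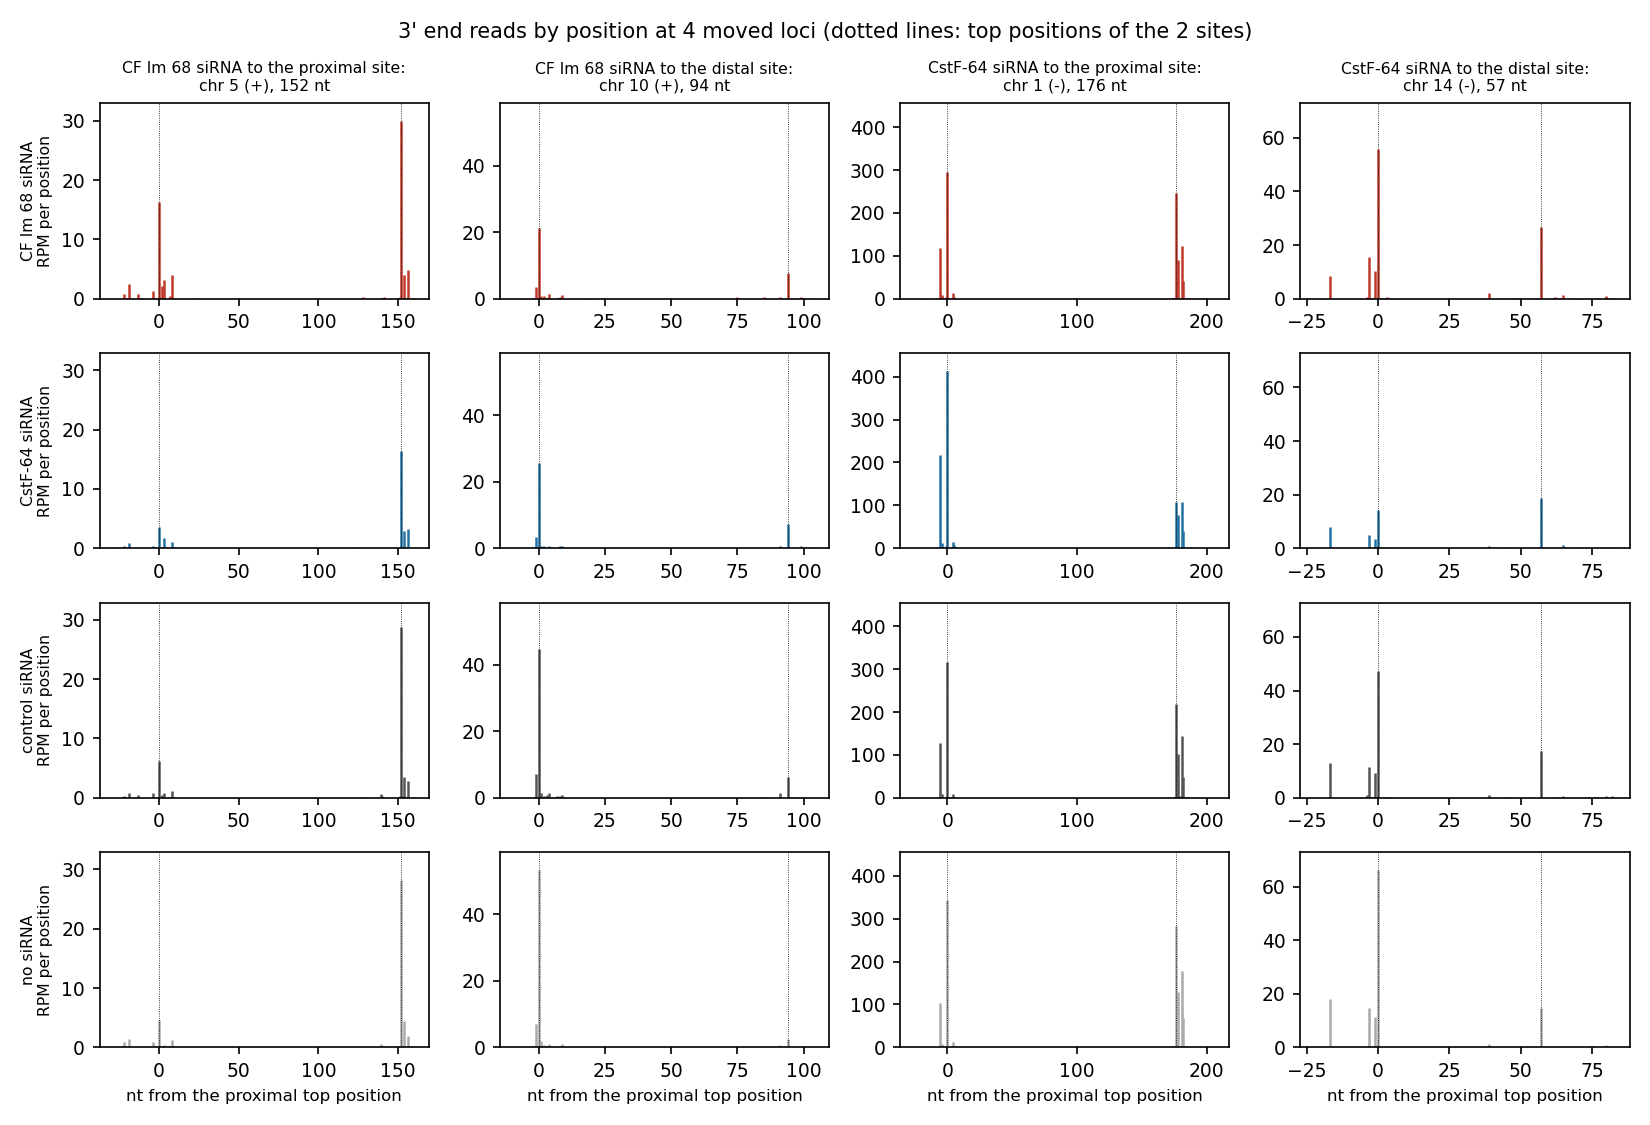
RPM at each 3′ end position, by distance in nt from the leading proximal position, at the most read locus of each list of moves (columns), in each library (rows). At the chromosome 14 pair in the right column the leading proximal position is at 14.2 RPM under CstF-64 siRNA and at 47.2 RPM under control siRNA.

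Compared directly, without a shared control, the CF Im 68 library used the proximal site of close pairs more than the CstF-64 library. The 2-library test gave 45 members with a larger and 13 with a smaller proximal share under CF Im 68 than under CstF-64 siRNA (8.06% and 2.33%), where 24.9% and 5.05% of all tested loci were called. The median difference was 2.25 points over members and 3.69 points over all tested loci. The share was larger in 356 members (63.8%) and smaller in 202, where it was larger in 66.9% of all tested loci. At 26 to 50 nt the median difference was 0.209 points with 7 larger and 4 smaller, and at over 50 to 75 nt it was 3.48 points with 7 and 2. At over 150 to 200 nt it was 2.50 points, with 10 larger and 4 smaller. The largest differences were at pairs given above, on chromosomes 1, 13 and 18 with CF Im 68 siRNA higher and on chromosomes 1, 2 and 3 with CstF-64 siRNA higher. In addition, the chromosome 15 pair (minus strand, 42451066 and 42450914) had 39.7% under CF Im 68 siRNA, 12.3% under CstF-64 siRNA, 21.8% under control siRNA and 27.3% without siRNA. The chromosome 4 pair (plus strand, 4865492 and 4865659) had 28.8%, 53.8%, 43.9% and 66.7% in the same order, so that its CstF-64 value lay between the controls.

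Differences between the control libraries reached sizes like those after the depletions. The largest were 26.6 points up and 24.2 points down for control siRNA against no siRNA. At the chromosome 6 pair (plus strand, 49460747 and 49460814) the proximal share was 55.9% under control siRNA (50.5 to 61.2) and 29.9% without siRNA (25 to 35.2), with 64.9% under CF Im 68 siRNA and 57.5% under CstF-64 siRNA. At the chromosome 2 pair (plus strand, 99234868 and 99234976) it was 40.1% under control siRNA (34.9 to 45.4) and 64.2% without siRNA (59.7 to 68.6), with 44.7% under CF Im 68 siRNA and 46.5% under CstF-64 siRNA. In both the 3 siRNA-treated libraries lay together and the untreated one apart. The same held at the chromosome 9 pair (minus strand, 123617976 and 123617930), with 87.0% under control siRNA, 60.3% without siRNA and 88.4% and 81.5% under CF Im 68 and CstF-64 siRNA. It held too at the chromosome 12 pair (plus strand, 109928443 and 109928526), with 47.5% and 23.4%, and 46.1% and 46.4% under the depletions. At the chromosome 20 pair (plus strand, 56935728 and 56935927) the values were 52.5% under control siRNA, 27.7% without siRNA, 51.9% under CF Im 68 siRNA and 63.1% under CstF-64 siRNA. The values were 36.2% and 60% at the chromosome 17 pair (minus strand, 26941505 and 26941465), and 27.6% and 50.9% at the chromosome 1 pair (plus strand, 155259528 and 155259639). The untreated library had the lowest proximal share of the 4 in 225 members (40.3%) and the highest in 164 (29.4%, against 22.1% of all tested loci). CstF-64 siRNA had the lowest in 168 members (30.1%) and the highest in 127 (22.8%, against 20.3% of all tested loci). The lowest was not counted over all tested loci. CF Im 68 siRNA had the highest in 204 members (36.6%), against 47.8% of all tested loci, and the lowest in 78 (14.0%). Whether these differences come from the siRNA treatment or from the cultures or libraries cannot be told apart.

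The starting share sets how far a share can move. In the 231 members with a mean control share below 25%, 15 had proximal and 0 had distal moves under CF Im 68 siRNA, and 12 and 1 under CstF-64 siRNA. At 25 to 50% the counts were 9 and 0 of 94 under CF Im 68 siRNA, and 9 and 7 under CstF-64 siRNA. At 50 to 75% they were 10 and 3 of 88 under CF Im 68 siRNA, and 8 and 7 under CstF-64 siRNA, and from 75% up they were 2 and 2 of 145, and 1 and 2. Among all tested loci under CF Im 68 siRNA, proximal and distal moves made up 33.0% and 0.30% below 25%, 34.9% and 2.56% at 25 to 50%, 21.1% and 4.38% at 50 to 75%, and 2.39% and 4.69% from 75% up. Under CstF-64 siRNA they made up 7.61% and 0.479%, 13.9% and 5.41%, 10.3% and 5.65%, and 1.34% and 4.69% in the same order of classes. The members' shares under CF Im 68 siRNA were 6.49% and 0%, 9.57% and 0%, 11.4% and 3.41%, and 1.38% and 1.38%. Under CstF-64 siRNA the members' shares were 5.19% and 0.433%, 9.57% and 7.45%, 9.09% and 7.95%, and 0.69% and 1.38%.

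The farthest pairs bordered on the next distance class. At the chromosome 6 pair (minus strand, 8079829 and 8079629), 200 nt apart, the proximal share was 95.3% under CF Im 68 siRNA, 93.3% under CstF-64 siRNA, 91.1% under control siRNA and 90.1% without siRNA. At the chromosome 19 pair (plus strand, 11172747 and 11172946) it was 50.3%, 42.6%, 49.9% and 61.6% in the same order, and at the chromosome 7 pair (plus strand, 5271156 and 5271355) it was 10.8%, 6.95%, 8.43% and 5.06%. None of these moved by the rule.

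Locus totals draw on the read levels that chose the members, which needed 50 pair reads in every library, a limit that the other loci did not have to pass, so the shares over all loci are no measure for them. With a 2-fold distance from both controls on the log2(RPM + 1) scale as the mark and no test, 4 of 558 members had a higher locus total under CF Im 68 siRNA and 0 a lower one, where 5.02% and 1.86% of all 17877 loci with at least 50 reads summed over the libraries did. Under CstF-64 siRNA there were 5 with a higher and 15 with a lower total, where 1.82% and 6.11% of all loci had one. Centred on the median of all loci, a scaling chosen after the data were seen, these counts were 3 and 1 under CF Im 68 siRNA and 8 and 8 under CstF-64 siRNA, where 4.5% and 2.27% of all loci under CF Im 68 siRNA and 2.67% and 4.09% under CstF-64 siRNA passed the mark. The largest excess under CF Im 68 siRNA was at the chromosome 12 pair (plus strand, 109524027 and 109524183), with 20.9 RPM under CF Im 68 siRNA, 17.7 RPM under CstF-64 siRNA, 7.22 RPM under control siRNA and 7.21 RPM without siRNA. The largest deficit under CstF-64 siRNA was at the chromosome X pair (plus strand, 84528237 and 84528363), with 80.8, 35.7, 119 and 127 RPM in the same order. Both loci were chosen after their values were seen.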

How the data were processed

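Each of the 4 libraries was deposited by the authors as read counts, not normalized, at single 3′ end positions of either strand. The submitters' processing notes name hg19 (GRCh37). Aligner and handling of multiply matched or duplicate reads are not given in the sources used here. Running numbers of the positions had gaps of 10.2 to 12.2%, so that positions had been removed by a rule not given. Reads of oligo-dT priming within transcripts were not separated from true 3′ ends, since no hg19 genome was used, and no sequence of the sites is shown.

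Totals were 12792623 reads under CF Im 68 siRNA, 7343112 under CstF-64 siRNA, 13443454 under control siRNA and 15806975 without siRNA. Sites, loci and pairs were built as described, with Python 3.11.15, NumPy 2.4.6, pandas 2.3.3 and SciPy 1.17.1. RPM were computed from the read totals. In every locus with at least 2 sites the 2 most used formed a pair, and the 4793 pairs with at least 50 reads in every library were tested together, which is where p-values were adjusted. Intervals are exact Clopper-Pearson at 95%. The test was run on simulated libraries drawn with counting error only, so that check does not cover the spread between libraries. By the same test the 2 control libraries differed at 15.8% of members and 21.7% of all tested loci. Named loci are the 8 largest moves per depletion and direction, the 4 largest differences per direction for the other library pairs, the 6 most read, the 3 nearest and farthest pairs and those at the limits. The members, lists and settings were chosen with earlier results of these data known.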

Additional observations from a re-analysis of the deposited data

How the results depend on the processing

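No paired analysis was possible because each group had 1 library. The proximal and distal counts are given in that order, with 36 and 5 under CF Im 68 siRNA and 30 and 17 under CstF-64 siRNA as reported. A minimum difference of 5 points gave 102 and 25 under CF Im 68 siRNA and 50 and 36 under CstF-64 siRNA, and 105 larger and 37 smaller in the direct comparison of the depletions. At 20 points these were 5 and 2, 6 and 5, and 12 and 6. At an adjusted p below 0.001, CstF-64 siRNA gave 17 and 10, and the direct comparison 27 and 8. Set against no siRNA alone the counts were 88 and 44 under CF Im 68 siRNA and 72 and 71 under CstF-64 siRNA, and against control siRNA alone CF Im 68 siRNA had 8 distal calls. At least 200 pair reads left 309 members, with 16 and 2, 17 and 11, and 18 larger in the direct comparison. CF Im 68 siRNA had 10 distal moves with libraries thinned to the smallest, 8 with reads within 5 nt of the leading position and 3 without pairs up to 50 nt apart. Without those pairs its median difference was 3.30 points. With sites of at least 10% of the locus, 72 were larger in the direct comparison and the median of control minus no siRNA was −0.143 points. The cause was not tested. A setting that left out sites with 90% of their level in 1 library removed none. Leaving out sites with 50% there, or pairs with over 10% of reads in the central part of the interval, both chosen after the data were seen, kept every count within 1.5 times. The setting on A-rich sequence was not run, for want of the hg19 genome. Of 451 values of named moves under all settings, 422 passed the rule again, 29 did not and 0 changed sign. That total is no measure of stability. The 5-point minimum, control siRNA alone and the settings that only left out members could not undo a call. Pairs that were no longer members were not scored, which left 10 values at 200 pair reads. Of 29 values, 17 kept the call at 20 points, 23 at an adjusted p below 0.001 and 26 with thinned libraries. At 50 reads only large differences can be shown, and CstF-64 siRNA had the fewest.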

Other observations

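A site on the opposite strand lay within 500 nt of 62 members (11.1%), against 11.3% of 2-site loci over 200 to 1000 nt apart.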
